A study of Mus musculus with 12 samples.

Results

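The genes described here encode the subunits, activators and assembly chaperones of the proteasome. They are the genes whose symbols begin with Psma, Psmb, Psmc, Psmd or Psme and a digit, without pseudogene names and without the 3 inducible immunoproteasome subunits Psmb8, Psmb9 and Psmb10. This rule takes 43 of the 32721 genes in the table and uses no measured value. Of these, 41 passed the filter on low values and were tested. Psma8, a subunit made in testis, had 0 reads in all 12 libraries, which allows up to 3 reads in each for counting error alone. Psmb11, a subunit of the thymus, had at most 4.23 normalized counts in a library, and neither gene was tested. The pattern also takes 3 names that are not subunits: Psmc3ip, a factor of meiotic recombination, Psme3ip1, a partner of the activator Psme3, and Psme2b, a copy of the activator gene Psme2.

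The proteasome degrades proteins that carry ubiquitin chains. Its barrel, the 20S core, is built of outer rings of alpha subunits (Psma genes) and inner rings of beta subunits (Psmb genes), of which Psmb5, Psmb6 and Psmb7 cut peptide bonds. The 19S cap binds ubiquitin, removes it, and unfolds the substrate with a ring of ATPases (Psmc genes) beside non-ATPase subunits (Psmd genes). The activators Psme1 to Psme4 open the core without ubiquitin. In fibroblasts, as in other cells, the transcription factor NRF1 (Nfe2l1) is known to raise subunit genes together when proteasome activity falls, and the proteasome is known as a source of amino acids when they are withdrawn.

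The cells were mouse embryonic fibroblasts (MEF) labelled Vps15f/f, in which both Vps15 alleles are floxed, and their poly-A RNA was measured. Vps15, listed as Pik3r4, is a partner of the lipid kinase Vps34, which autophagy needs. All cells carried the floxed alleles and an adenovirus: adeno-GFP in the groups labelled WT, adeno-CRE, which brings the recombinase that excises floxed DNA, in those labelled Vps15KO, per the treatment protocol. The library names instead carry pLEX_GFP and pLEX_CRE, and the labels do not say how these relate to the adenovirus. Cells were taken 5 days after transduction, from basal medium (high-glucose DMEM with 10% FBS) or after 2 h in EBSS, a salt solution with glucose and without amino acids or serum. Each of the 4 groups (WT basal, WT EBSS, Vps15KO basal, Vps15KO EBSS) held 3 libraries, and all 12 carry 1 batch label. No group had Cre without floxed alleles, so that Cre and the loss of Vps15 cannot be told apart. Nor can the loss of amino acids, the loss of serum and any other difference between the media. No label says that the libraries of a group came from separate cultures, so p-values measure the spread between these libraries, which may be technical.

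The libraries held 21278921 to 21698584 reads in genes, and 95577 to 120048 of these, 0.440% to 0.556%, were on the proteasome genes. Pik3r4, read first as a check of the labels, had 863.8 to 883.7 normalized counts in WT and 632.8 to 699.8 in Vps15KO libraries of basal medium, and 833.9 to 959.1 against 601.6 to 671.7 in EBSS. Reads over a whole gene, with the excised part not stated, do not tell how complete the excision was. Of 10 fibroblast markers 9 passed the filter, with summed counts of 466808 to 490960 in WT basal, 404457 to 452383 in WT EBSS, 202499 to 211121 in Vps15KO basal and 182598 to 195544 in Vps15KO EBSS libraries, while Thy1 had at most 3.18 counts. Of 6 macrophage markers 2 passed. Their sum was 865 to 897 in WT basal against 2920 to 3798 in Vps15KO basal libraries, nearly all of it Cd68, a lysosomal protein, with Ptprc, Adgre1 and Tyrobp at most 1.98 counts in any library. The marker sums for epithelial and endothelial cells stayed at or below 35.2 counts. The sum for skeletal muscle, mostly Tnnt3, was 1764 to 2582 in WT basal and 719 to 1039 in Vps15KO libraries. The part of these shifts in the results below was not tested.

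WT basal replicate 2 stood apart for the proteasome genes. It was the highest of the 3 WT basal libraries for 29 of the 41 genes tested (70.7%), among them 13 of 14 core subunits, against 41.8% of all genes tested. Psmc5, an ATPase, had 1491, 2169 and 1399 normalized counts in WT basal replicates 1 to 3 and 1478 to 1781 in the other groups. In Vps15KO basal medium replicate 2 was highest for 27 of 41 (65.9%), against 32.1% of all genes. The main counts of called genes below are therefore given also without WT basal replicate 2. For the 41 genes, the Vps15KO counts in basal medium are given without Vps15KO basal replicate 2 too.

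Levels are given as normalized counts, reads divided by the authors' size factor of the library, and compared between genes only per kb of transcript. In WT basal libraries the core subunit Psmb6 had the highest level per length, 6252 ± 1060 normalized counts per kb (mean ± SD, n = 3), and Psme2b the lowest, 34.7 ± 9.59. Next below Psmb6 came Psme2 with 4051 ± 587 and Psma6, an alpha subunit, with 3901 ± 354, which lie within 1 SD of each other. The median was 2862 per kb over the 14 core subunits and 1281 over the 17 subunits of the cap. Within the core, Psma2 was lowest at 949.7 ± 3.20. Its assigned transcript length, 2911 bases, is the longest of the core, and the SDs leave out any error in assigned lengths. Within the cap the range ran from 586.9 ± 14.1 for Psmd11 to 2801 ± 176 for Psmd2. Of the chaperones that assemble the cap, Psmd5 and Psmd9 lay below this range, at 238 and 278 per kb. Psmd10, at 603, lay near its lower end.

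**Figure D1:**
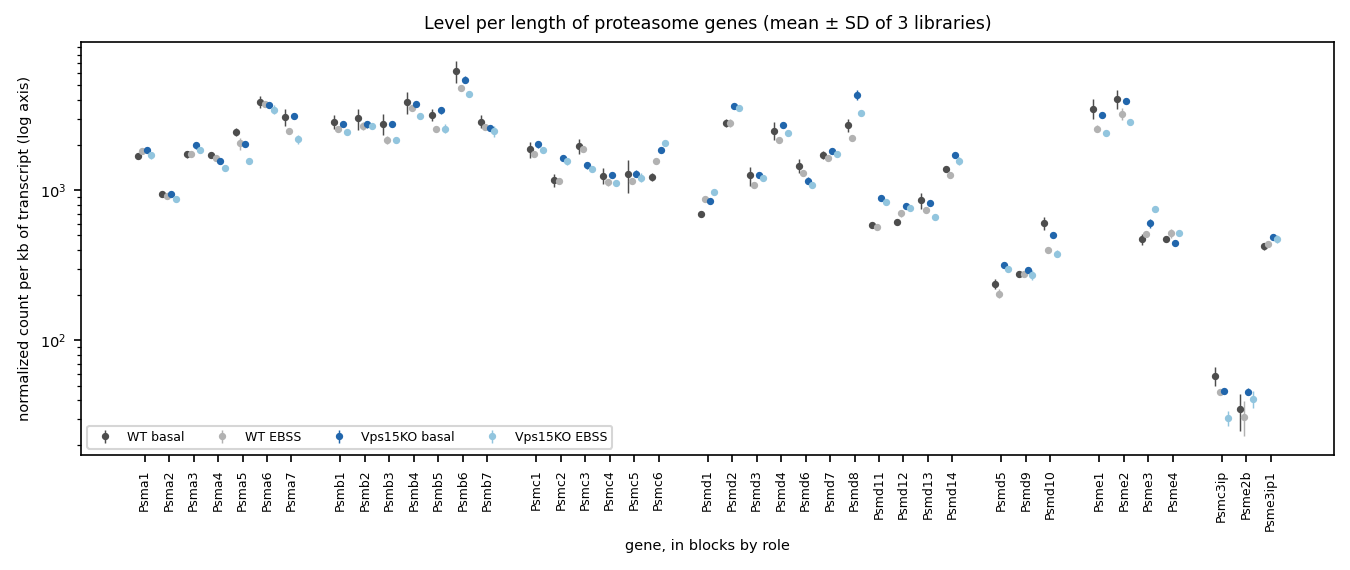
Level per length of the 41 tested genes in each group, as normalized counts per kb of transcript on a log axis, in blocks by role (alpha, beta, ATPase, non-ATPase, assembly chaperone, activator, other names). Points are means of 3 libraries and bars the SD; Psmb6 is highest in every group and the core subunits lie mostly above those of the cap.

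The median level of the cap relative to that of the core differed between WT and Vps15KO libraries. The ratio of the median per kb of cap subunits to that of core subunits was 0.462, 0.452 and 0.490 in WT basal replicates 1 to 3 and 0.573, 0.543 and 0.497 in Vps15KO basal replicates. In EBSS it was 0.495, 0.506 and 0.515 in WT and 0.597, 0.590 and 0.608 in Vps15KO libraries. In both media all 3 Vps15KO libraries lay above all 3 WT libraries, in basal medium narrowly (0.497 against 0.490). The middle gene of the cap differed between groups: it was Psmc3 in the Vps15KO libraries and Psmd14 in the WT EBSS libraries. The ratio thus does not follow the same cap gene through the groups. These ratios over chosen genes carry no test, and the tests below are of single genes.

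Loss of Vps15 was compared within each medium, to ask which proteasome genes differ between WT and Vps15KO cells. A gene was called when its Benjamini-Hochberg adjusted p from limma, over all 14279 genes tested, was under 0.05. In basal medium 13 of 41 proteasome genes were called higher in Vps15KO (31.7%) and 4 lower (9.76%), with a median log2 difference of 0.03. That median was 0.13 without WT basal replicate 2 and -0.021 without WT basal replicate 1. Of all genes tested, 29.3% were called higher and 29.2% lower, with a median of -0.01, 58.5% either way, so the share called higher is near the background and the share called lower is under it. Of 17 cap subunits 8 were called higher and 2 lower (median 0.13), and of 14 core subunits 2 were called higher and 1 lower (median -0.04). Without WT basal replicate 2 the counts were 21 higher and 4 lower of 41, with 13 higher and 2 lower of the cap and 4 higher and 1 lower of the core. Without Vps15KO basal replicate 2, which also stood apart, there were 10 higher and 4 lower of 41, so the 2 removals moved the count of higher genes in opposite directions. Without WT basal replicate 1 there were 7 lower in place of 4. With equal medians the split was 12 higher and 8 lower, and with quantile normalization 12 and 7. At an unadjusted p under 0.05, 20 of 41 passed, against 62.5% of all genes. Libraries of the 2 groups did not overlap for 13 genes that were higher and 6 that were lower, against 30.5% and 31.1% of all genes. In bulk RNA, fewer cells that express a gene and less RNA per cell cannot be told apart.

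In EBSS medium 9 of 41 genes were called higher in Vps15KO (22.0%) and 5 lower (12.2%), with a median of 0.00, against 29.4% and 27.8% of all genes (57.2% either way). Of the cap 7 were called higher and 2 lower (median 0.15). Of the core, limma called 0 higher and 2 lower (median -0.10), as voom did, and 4 of 14 passed an unadjusted p under 0.05. Over the 41 genes 17 did, against 61.3% of all genes. Libraries did not overlap for 14 genes that were higher and 11 that were lower, against 33.8% and 32.5% of all genes. With equal medians the split was 8 higher and 11 lower, and with quantile normalization 8 and 9. Without WT basal replicate 2, which is in neither group here and enters only the shared estimate of the spread, the counts were 11 higher and 11 lower. The comparisons in basal medium and in EBSS share no library. All 9 genes called higher in EBSS were among the 13 of basal medium. Of the lower ones 3 were shared, 60.0% of those in EBSS and 75.0% of those in basal medium. The overlap over all genes was not computed, so these shares have no background to be read against.

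Psmd8, a lid subunit of the cap, had the largest log2 difference of the 41 genes in basal medium. Psmd8 stood at 3811, 4551 and 3902 normalized counts in WT basal against 5920, 6860 and 6700 in Vps15KO basal replicates 1 to 3. In EBSS they were 3217, 3408 and 3497 in WT and 4900, 4970 and 4867 in Vps15KO. In each medium every Vps15KO library lay above every WT library. The ratio of means was 1.59 in basal medium (log2 difference 0.67 ± 0.07, SE; limma adjusted p = 2.89e-07) and 1.46 in EBSS (0.54 ± 0.07; adjusted p = 3.51e-06).

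Psmd11, a scaffold subunit of the lid known to limit assembly of the complete particle, had close replicates. WT basal libraries held 1643, 1653 and 1717 normalized counts and Vps15KO basal libraries 2492, 2474 and 2600. WT EBSS libraries held 1571, 1604 and 1690 and Vps15KO EBSS libraries 2320, 2401 and 2376. The groups were far apart in both media, while basal and EBSS values of WT overlapped. Vps15KO stood 0.59 ± 0.05 higher on the log2 scale in basal medium (limma adjusted p = 5.31e-08) and 0.54 ± 0.05 in EBSS (adjusted p = 1.45e-07), ratios of 1.51 and 1.46.

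Among the ATPases Psmc2 and Psmc6 were called higher in both media and Psmc3 lower in both. Psmc6 had 2707, 2583 and 2950 normalized counts in WT basal libraries and 4315, 4070 and 4051 in Vps15KO basal libraries, a log2 difference of 0.59 ± 0.06 (limma adjusted p = 1.52e-07). In EBSS its counts were 3538, 3546 and 3477 in WT and 4725, 4662 and 4354 in Vps15KO, a difference of 0.38 ± 0.06 (adjusted p = 3.09e-05). For Psmc6 the order of the groups was complete, WT basal below WT EBSS, below Vps15KO basal, below Vps15KO EBSS, with no library out of place. Psmc2 had 1955, 2312 and 1978 counts in WT basal against 2910, 3017 and 2887 in Vps15KO basal libraries (0.50 ± 0.07; adjusted p = 5.8e-06), and 1971, 2055 and 2150 against 2909, 2623 and 2837 in EBSS (0.43 ± 0.07; adjusted p = 2.52e-05). Psmc3 went the other way, from 3033, 3653 and 3008 counts in WT basal to 2489, 2475 and 2240 in Vps15KO basal libraries, -0.42 ± 0.07 (adjusted p = 5.08e-05). In EBSS Psmc3 had 3152, 3046 and 3054 counts in WT and 2252, 2219 and 2280 in Vps15KO (-0.45 ± 0.07; adjusted p = 2.33e-05). The ATPases sit in 1 ring of equal parts, and their messages differed in opposite directions between these cells.

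The other cap genes called higher in both media were Psmd1 and Psmd2, the large subunits at its base, Psmd14, the deubiquitinase, and the chaperone Psmd5. Psmd5 had 1111, 1074 and 953.7 normalized counts in WT basal, 854.4, 972.8 and 879.8 in WT EBSS, 1338, 1446 and 1431 in Vps15KO basal and 1306, 1358 and 1290 in Vps15KO EBSS libraries. Every Vps15KO library lay above every WT library. It was 0.42 ± 0.07 higher in Vps15KO in basal medium and 0.53 ± 0.07 in EBSS (limma adjusted p = 5.14e-05 and 2.94e-06). Psmd2 was 0.37 ± 0.06 and 0.33 ± 0.06 higher, and Psmd14 0.31 ± 0.06 and 0.29 ± 0.06. The call of Psmd1 in EBSS ended without WT EBSS replicate 1 or Vps15KO EBSS replicate 1 or 2, with adjusted p from 0.0551 to 0.0732. Psmd12, a lid subunit, was called higher in basal medium (0.34 ± 0.06), and in EBSS its difference was 0.12 ± 0.06 (adjusted p = 0.0988).

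Psma5, an alpha subunit, and Psmd6, a lid subunit, were lower in Vps15KO in both media. Psma5 had 2980, 3252 and 2865 normalized counts in WT basal against 2474, 2527 and 2539 in Vps15KO basal libraries (-0.27 ± 0.07; limma adjusted p = 0.00237). In EBSS it had 2772, 2561 and 2290 in WT and 1943, 1944 and 1948 in Vps15KO (-0.38 ± 0.07; adjusted p = 0.000103). The Vps15KO libraries lay below all WT libraries in each medium. Psmd6 differed by -0.32 ± 0.07 in basal medium and -0.27 ± 0.07 in EBSS. Psma4, an alpha subunit, and Psmc3ip were called lower in EBSS alone (-0.22 ± 0.06 and -0.40 ± 0.11), and in basal medium their differences were -0.13 ± 0.06 and -0.24 ± 0.11 (adjusted p = 0.0641 and 0.0586).

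In all 12 fits that left out 1 library and under every other setting tried, 10 of the 13 genes higher in basal medium kept their call: Psmc2, Psmc6, Psmd1, Psmd2, Psmd5, Psmd8, Psmd11, Psmd12, Psmd14 and Psme3. The alpha subunit Psma1 lost it in 10 of the 12 fits, all but those without WT basal replicate 2 or Vps15KO EBSS replicate 3 (adjusted p 0.0501 to 0.117). Psma3 lost it without Vps15KO basal replicate 2 (adjusted p = 0.0662), Psme3ip1 without that library or WT basal replicate 1 (0.0552 and 0.0541), and of the genes called lower Psmd10 without WT basal replicate 1 (0.0528).

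**Figure D2:**
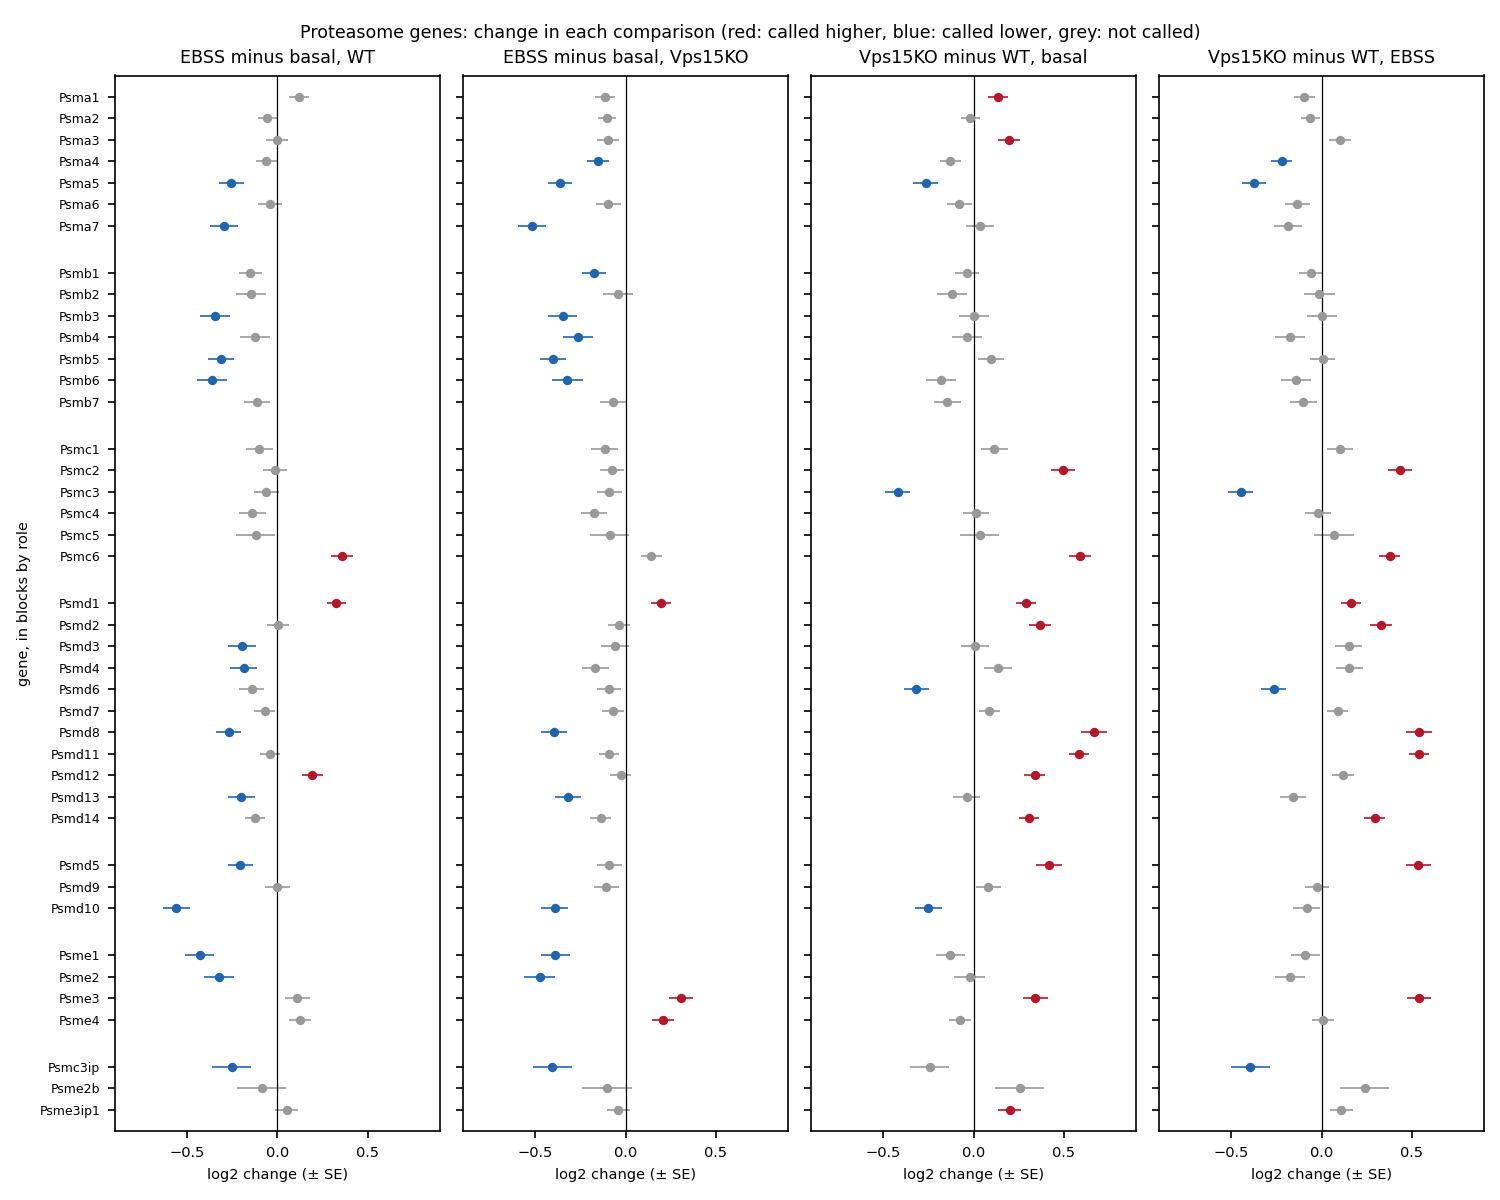
Log2 change of each tested proteasome gene in the 4 comparisons, with bars of 1 SE, in blocks by role. Red marks genes called higher, blue lower and grey not called; in the Vps15KO panels the red points lie mostly in the cap blocks, and in the EBSS panels no core subunit is red, and the activators Psme1 and Psme2 are blue in both.

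The start regions of genes that moved apart in Vps15KO are shown because the members differ in which motif letters they hold. Promoters from RefSeq (build GRCm38.p6, 250 bases before to 50 after a start) matched 36 of the 43 genes, with 40 start sites. Motifs were searched on both strands. They included the core of the antioxidant response element bound by NRF1 and NRF2 (TGACNNNGC), and its form with every base fixed, TGACTCAGC. The others were the CCAAT box, a pair of interferon half-sites (GAAA, any 2 bases, GAAA) and an ETS factor site (CCGGAAG). The ETS site was chosen after values were seen. Below are the 250 bases before the start, 5′ to 3′ on the gene's strand, with motif matches in capitals. Psmd8, Psmd11, Psmc6 and Psmc2 were higher in Vps15KO in both media, Psma5 and Psmd6 lower in both, and Psmb5 was called in neither.
Psmd8, chr7:29180674-29180923, minus strand: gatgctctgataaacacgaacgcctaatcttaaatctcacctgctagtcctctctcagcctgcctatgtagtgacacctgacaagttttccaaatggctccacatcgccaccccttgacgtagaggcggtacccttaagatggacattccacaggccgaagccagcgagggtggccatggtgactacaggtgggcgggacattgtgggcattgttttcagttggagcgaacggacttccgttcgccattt
Psmd11, chr11:80428365-80428614, plus strand: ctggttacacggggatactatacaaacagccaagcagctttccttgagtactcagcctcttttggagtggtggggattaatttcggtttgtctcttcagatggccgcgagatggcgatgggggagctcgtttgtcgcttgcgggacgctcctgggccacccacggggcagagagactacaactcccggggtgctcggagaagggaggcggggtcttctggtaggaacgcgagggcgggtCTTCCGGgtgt
Psmc6, chr14:45329574-45329823, plus strand: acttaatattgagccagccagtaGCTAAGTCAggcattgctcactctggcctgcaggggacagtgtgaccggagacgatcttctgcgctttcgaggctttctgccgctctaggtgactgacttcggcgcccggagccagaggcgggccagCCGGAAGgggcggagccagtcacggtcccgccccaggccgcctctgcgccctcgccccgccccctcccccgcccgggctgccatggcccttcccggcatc
Psmc2, chr5:21785025-21785274, plus strand: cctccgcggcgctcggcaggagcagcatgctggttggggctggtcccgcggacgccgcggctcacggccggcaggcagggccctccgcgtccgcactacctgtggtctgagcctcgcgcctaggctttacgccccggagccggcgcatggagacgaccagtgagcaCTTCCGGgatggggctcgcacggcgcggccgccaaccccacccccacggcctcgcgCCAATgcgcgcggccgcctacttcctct
Psma5, chr3:108256676-108256925, plus strand: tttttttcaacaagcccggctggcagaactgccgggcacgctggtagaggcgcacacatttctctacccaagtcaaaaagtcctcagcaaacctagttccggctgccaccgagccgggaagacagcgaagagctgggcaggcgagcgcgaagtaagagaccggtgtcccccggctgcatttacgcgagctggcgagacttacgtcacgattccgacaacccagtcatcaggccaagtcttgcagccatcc
Psmd6, chr14:14120946-14121195, minus strand: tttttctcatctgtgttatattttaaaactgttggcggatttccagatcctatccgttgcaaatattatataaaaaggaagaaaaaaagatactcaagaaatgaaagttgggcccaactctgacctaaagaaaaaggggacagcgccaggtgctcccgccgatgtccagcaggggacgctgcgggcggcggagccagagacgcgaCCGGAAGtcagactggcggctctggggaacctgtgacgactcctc
Psmb5, chr14:54617996-54618245, minus strand: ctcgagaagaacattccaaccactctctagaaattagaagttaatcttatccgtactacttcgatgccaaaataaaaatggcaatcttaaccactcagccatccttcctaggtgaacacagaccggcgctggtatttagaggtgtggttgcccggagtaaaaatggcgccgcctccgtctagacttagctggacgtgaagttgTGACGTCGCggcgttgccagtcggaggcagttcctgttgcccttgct
Capitals mark the ETS letters in Psmd11, Psmc6, Psmc2 and Psmd6, the response element core in Psmc6 and Psmb5, and CCAAT in Psmc2. Psmd8 and Psma5 hold none of the letters searched in this window. The ETS letters were present in 15 of the 40 member promoters (37.5%), against 8.86% of all 32851 promoters and 16.5% of those of genes tested. They stood in 10 of 15 cap promoters (66.7%) and in 1 of 12 core promoters (8.33%). Genes higher and lower in Vps15KO both hold them, as Psmd11 and Psmd6 show. The response element core was in 6 of 40 (15.0%) against 12.4% of all promoters, and its fixed form in 0 of 40 against 0.454%. CCAAT was in 37.5% against 37.4%, and the interferon half-sites in 10.0% against 3.44%. A match is a description of letters, and shows neither binding nor regulation.

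The effect of EBSS was compared within each genotype, to ask how proteasome genes change when basal medium is replaced by EBSS. In WT cells 3 of 41 were called higher after 2 h (7.32%) and 14 lower (34.1%), with a median of -0.12. Of all genes tested, 31.4% were called higher and 31.3% lower, 62.7% either way, with a median of -0.02. In Vps15KO cells the counts were again 3 higher and 14 lower of 41, with a median of -0.10, against 25.9% higher and 26.1% lower of all genes, 52.0% either way. So the share called lower is near that of all genes in WT and above it in Vps15KO. The share called higher is well under it in both. Leaving out 1 library gave 11 to 19 lower of 41 in Vps15KO, with 6273 to 8331 of all genes called either way. The lowest values of both came without Vps15KO basal replicate 2. Of 14 core subunits limma called 0 higher and 5 lower in WT and 0 higher and 8 lower in Vps15KO (medians -0.14 and -0.16), as voom did, and 6 and 8 passed an unadjusted p under 0.05. Over the 41 genes 19 and 21 did, against 66.2% and 57.2% of all genes. Libraries of the 2 media did not overlap for 4 genes that were higher and 16 that were lower in WT, against 32.7% and 32.5% of all genes, and for 4 and 21 in Vps15KO, against 31.1% and 31.9%. Of the cap, 3 were called higher and 4 lower in WT (median -0.10), and 1 higher and 2 lower in Vps15KO (median -0.09). When WT basal replicate 2 was left out, the WT counts were 1 higher and 5 lower for the core and 3 higher and 1 lower for the cap.

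The 2 comparisons share no library. The genes called lower in both genotypes were 11, 78.6% of the 14 in each: Psma5, Psma7, Psmb3, Psmb5, Psmb6, Psmc3ip, Psmd8, Psmd10, Psmd13, Psme1 and Psme2. Psmd1 alone was called higher in both. The same overlap over all genes was not computed, so the 78.6% has no background to be read against. Without WT basal replicate 2 the WT counts were 4 higher and 10 lower, and the median of the 41 genes was -0.04 in place of -0.12. In Vps15KO, whose libraries then stay the same, they were 4 higher and 19 lower. Scaling moved these counts: with quantile normalization they were 2 higher and 26 lower in WT and 1 higher and 29 lower in Vps15KO.

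Of the catalytic subunits, Psmb5 and Psmb6 were called lower after EBSS in both genotypes and Psmb7 was not called, and the difference between these genes was not tested. Psmb5, the chymotrypsin-like subunit, had 2721, 3193 and 2698 normalized counts in WT basal libraries and 2342, 2306 and 2248 in WT EBSS libraries. In Vps15KO it had 2901, 3205 and 3079 in basal medium and 2325, 2140 and 2464 in EBSS. In both genotypes all EBSS libraries lay below all basal ones, with log2 changes of -0.31 ± 0.07 (limma adjusted p = 0.000872) and -0.40 ± 0.07 (adjusted p = 0.000119). Psmb6, the caspase-like subunit, fell from 4479, 5966 and 4522 to 3993, 3767 and 3764 in WT and from 4164, 4577 and 4344 to 3399, 3394 and 3646 in Vps15KO. Its changes were -0.36 ± 0.08 and -0.32 ± 0.08 (adjusted p = 0.00116 and 0.00381). Psmb7, the trypsin-like subunit, had 3276, 3681 and 3029 counts against 2990, 3083 and 3120 in WT and 2957, 3157 and 2883 against 2779, 2663 and 3139 in Vps15KO. Its values overlapped between media, with changes of -0.11 ± 0.07 and -0.07 ± 0.07 that were not called, and 95% intervals of -0.27 to 0.04 and -0.22 to 0.08.

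Psma7, an alpha subunit, was also called lower in both. It had 2580, 3229 and 2616 normalized counts in WT basal and 2327, 2171 and 2306 in WT EBSS libraries, a change of -0.30 ± 0.08 (limma adjusted p = 0.00284). In Vps15KO it went from 2710, 2993 and 2897 to 2021, 2107 and 1853, -0.52 ± 0.08 (adjusted p = 2.35e-05), with no overlap in either genotype. Psmb3 fell by 0.35 on the log2 scale in each genotype. Psma5 fell by 0.25 in WT and by 0.37 in Vps15KO. The Vps15KO calls of Psma4, Psmb1 and Psmb4 were lost in 2 to 5 of the 12 fits that left out 1 library, each time one of the Vps15KO libraries, with adjusted p from 0.0521 to 0.132.

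In the cap and its chaperones the changes went both ways. Psmd10, or gankyrin, a chaperone of the ATPases, had 928.9, 858.5 and 763.7 normalized counts in WT basal and 579.7, 537.3 and 583.1 in WT EBSS libraries. In Vps15KO it went from 723.6, 692.0 and 707.0 to 544.7, 553.3 and 501.8. Every EBSS library lay below every basal library of its genotype, by -0.56 ± 0.07 in WT (limma adjusted p = 3.7e-06) and -0.39 ± 0.07 in Vps15KO (adjusted p = 0.000274). The gene overlaps Atg4a by 2867 bases, and whether the counting used the strand is not stated. Atg4a itself changed by 0.07 ± 0.09 in WT after EBSS and was not called. Psmd8 fell in both genotypes, by 0.27 and 0.40 on the log2 scale, with the library values given above.

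The cap genes called higher after EBSS were Psmc6, Psmd1 and Psmd12 in WT and Psmd1 in Vps15KO. Psmd1 had 2176, 2068 and 2239 normalized counts in WT basal and 2618, 2808 and 2726 in WT EBSS libraries, and 2622, 2672 and 2650 against 3098, 3067 and 2960 in Vps15KO. Its changes were 0.33 ± 0.05 in WT (limma adjusted p = 4.87e-05) and 0.20 ± 0.05 in Vps15KO (adjusted p = 0.00556). Psmc6 changed by 0.36 ± 0.06 in WT (adjusted p = 4.99e-05) and by 0.14 ± 0.06 in Vps15KO, which was not called (adjusted p = 0.0542). Psmd12 was called higher in WT (0.19 ± 0.06), and in Vps15KO its change was -0.03 ± 0.06. Psmc3ip, Psmd3, Psmd4, Psmd5 and Psmd13 lost their WT call in 2 to 9 of the 12 fits that left out 1 library, with adjusted p from 0.0502 to 0.217. Psmd5 lost it without WT basal replicate 1 or WT EBSS replicate 1, Psmd13 without WT basal replicate 2 or WT EBSS replicate 2 or 3, and Psmd3 without WT basal replicate 2 or any WT EBSS library. The genes that kept their EBSS call in all 12 fits and under every other setting were Psmc6, Psmd1, Psma5, Psma7, Psmd10, Psme1 and Psme2 in WT, and Psme3 with 10 of the 14 lower genes in Vps15KO. Of these 10, Psmc3ip did not pass the stricter filter on low values and was not tested under it.

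Of the activators, Psme1 and Psme2 fell after EBSS in both genotypes, and Psme3 and Psme4 were called higher in Vps15KO. Psme1 and Psme2 form 1 ring known to be induced by interferon. Psme1 had 3418, 4550 and 3704 normalized counts in WT basal, 3027, 2850 and 2712 in WT EBSS, 3511, 3674 and 3401 in Vps15KO basal and 2695, 2739 and 2620 in Vps15KO EBSS libraries. Psme2 had 3420, 4129 and 3127, then 3059, 2873 and 2548, then 3467, 3599 and 3374, then 2488, 2387 and 2608, in the same order. The EBSS libraries lay below the basal ones for both genes in both genotypes. Psme1 changed by -0.43 ± 0.08 in WT and -0.39 ± 0.08 in Vps15KO (limma adjusted p = 0.000151 and 0.000546). Psme2 changed by -0.32 ± 0.08 and -0.48 ± 0.08 (adjusted p = 0.0029 and 0.00014), and reads of its copy Psme2b, 20.4 to 40.2 counts a library, may be counted with it. Neither was called between genotypes.

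Psme3, the nuclear activator, had 1284, 1144 and 1355 normalized counts in WT basal, 1339, 1369 and 1374 in WT EBSS, 1719, 1565 and 1529 in Vps15KO basal and 1946, 1948 and 2072 in Vps15KO EBSS libraries. WT values overlapped between media and Vps15KO values did not. The change after EBSS was 0.31 ± 0.07 in Vps15KO (limma adjusted p = 0.000981) and 0.11 ± 0.07 in WT (adjusted p = 0.161), but the test of the difference gave 0.20 ± 0.10 (adjusted p = 0.172). Between genotypes Psme3 was 0.34 ± 0.07 higher in Vps15KO in basal medium and 0.54 ± 0.07 in EBSS (adjusted p = 0.000279 and 1.91e-06). Psme4, a large single-chain activator, had 3108, 2954 and 3134 counts in WT basal, 3568, 3401 and 3088 in WT EBSS, 2760, 3032 and 2943 in Vps15KO basal and 3345, 3373 and 3380 in Vps15KO EBSS libraries. It was called higher after EBSS in Vps15KO (0.21 ± 0.06; adjusted p = 0.00823), with 0.13 ± 0.06 in WT (adjusted p = 0.0821). It has the longest transcript of the set, 6491 bases, and with length and GC trends removed its changes were -0.078 in Vps15KO and -0.23 in WT. Psme4 also overlaps Erlec1 by 18357 bases.

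**Figure D3:**
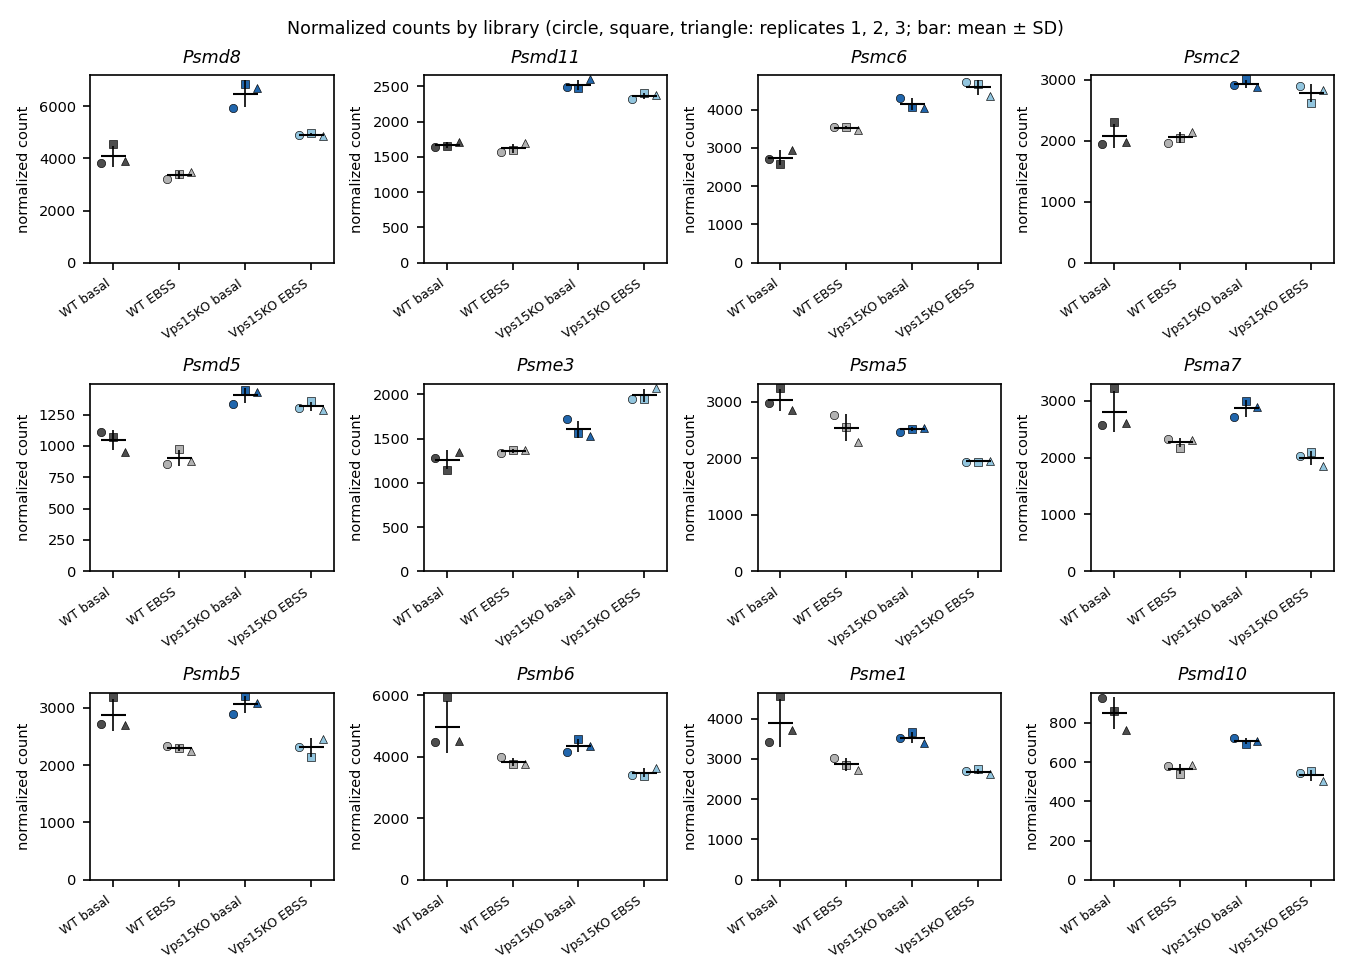
Normalized counts of 12 proteasome genes in every library, with axes from 0. Circle, square and triangle are replicates 1, 2 and 3, and the cross gives mean ± SD (n = 3); Psmd8, Psmd11, Psmc6, Psmc2, Psmd5 and Psme3 are higher in both Vps15KO groups, Psmb5, Psmb6, Psma7, Psme1 and Psmd10 are lower in both EBSS groups, and WT basal replicate 2 is the highest of its group for most core genes.

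Whether the response to EBSS differed between genotypes was tested by the interaction term, Vps15KO minus WT. No proteasome gene was called by limma, against 17.8% of all genes tested (9.55% higher, 8.24% lower), and 3 of 41 passed an unadjusted p under 0.05, against 31.0% of all genes. The fit with voom weights also called 0. The smallest p-values were those of Psma1, -0.23 ± 0.08 (adjusted p = 0.0527), Psmd12, -0.22 ± 0.08 (0.077), and Psmc6, -0.21 ± 0.08 (0.0895). Over the 41 genes the median was -0.04. Without WT basal replicate 2 the median was -0.12, with 1 gene called higher and 5 lower, and without WT basal replicate 3 there was 1 called lower. With all libraries kept, quantile normalization gave 2 lower, and equal medians, the removal of length and GC trends and the stricter filter on low values gave 1 lower each. Whether any of these genes is called for the difference thus depends on these libraries and settings.

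Transcript length moved with the changes. Across the 41 genes the Spearman correlation of the EBSS change with transcript length was 0.591 in WT and 0.608 in Vps15KO, against 0.327 and 0.358 across the 13705 genes with a length. With GC content it was -0.482 and -0.331. For the Vps15KO difference it was 0.453 in basal medium and 0.504 in EBSS with length, against 0.129 and 0.0836 across all genes. These are descriptions across genes that share libraries. The core genes are short, with a median of 1163 bases, against 1636 for the cap and 2720 for all genes, so length and role overlap. With each library's trends with length and GC removed, 5 genes were called higher and 11 lower after EBSS in WT (median -0.04), and 1 higher and 15 lower in Vps15KO (median -0.09). In basal medium Vps15KO then had 15 higher and 8 lower, with 10 higher and 2 lower of the 17 cap subunits, and in EBSS 10 higher and 9 lower. This ended the EBSS calls of Psmb3, Psmb5, Psmb6, Psmc3ip, Psmd3, Psmd4, Psmd8 and Psmd13 in WT and of Psma4, Psmb4, Psmb6, Psmd1 and Psme4 in Vps15KO, and the Vps15KO calls of Psma1 and Psma3 in basal medium and of Psmd1 in EBSS.

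**Figure D4:**
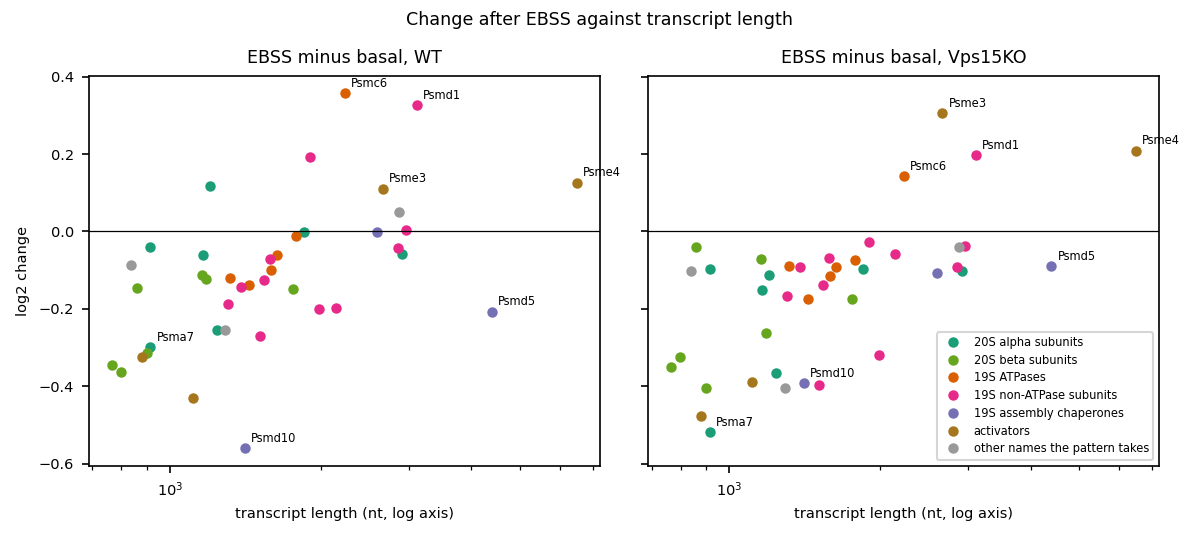
Log2 change after EBSS against transcript length in bases (log axis) for the 41 tested genes, with WT on the left and Vps15KO on the right, colored by role. Short core and Psme1 and Psme2 genes lie at the lower left and the long genes Psmd1, Psme3 and Psme4 at the upper right, while Psmd5, also long, lies below 0; Spearman rho is 0.591 and 0.608.

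Genes that work around the proteasome were taken from 6 lists of 47 genes, 46 of them tested. Their counts stand against the shares of all genes called higher and lower: 31.4% and 31.3% after EBSS in WT, 25.9% and 26.1% after EBSS in Vps15KO, 29.3% and 29.2% for Vps15KO in basal medium, and 29.4% and 27.8% for Vps15KO in EBSS. Among 9 assembly factors and inhibitors tested, 1 was called higher and 3 lower after EBSS in WT, 0 and 6 in Vps15KO, 3 and 0 for Vps15KO in basal medium, and 2 and 2 in EBSS. With WT basal replicate 2 left out there were 1 and 1 after EBSS in WT and 5 and 0 for Vps15KO in basal medium. Akirin2, which carries proteasomes into the nucleus, had 1436, 1400 and 1440 normalized counts in WT basal, 1072, 1156 and 1120 in WT EBSS, 2295, 2372 and 2461 in Vps15KO basal and 2168, 2053 and 1958 in Vps15KO EBSS libraries. It was 0.73 ± 0.06 higher in Vps15KO in basal medium and 0.87 ± 0.06 in EBSS (limma adjusted p = 7.66e-09 and 6.19e-10). Ecpas, an adaptor that binds the whole particle, was 0.43 ± 0.06 and 0.44 ± 0.06 higher. Psmg3, a chaperone of the alpha ring, was lower in Vps15KO EBSS than in WT EBSS, by -0.44 ± 0.10.

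Of 6 partners of the cap, 4 were called higher and 1 lower in Vps15KO in basal medium and 3 higher and 1 lower in EBSS. After EBSS 2 were called higher and 2 lower in WT, and 1 and 2 in Vps15KO. Of all genes, 58.5% were called either way for Vps15KO in basal medium and 57.2% in EBSS. Leaving out WT basal replicate 2 gave 5 higher and 0 lower for Vps15KO in basal medium and 2 and 1 after EBSS in WT. The deubiquitinase Uchl5 had 391.8, 399.1 and 417.9 normalized counts in WT basal against 658.1, 690.0 and 659.9 in Vps15KO basal libraries, 0.70 ± 0.07 higher (limma adjusted p = 2.4e-07). Usp14, the other deubiquitinase, was 0.59 ± 0.07 higher in basal medium and 0.54 ± 0.07 in EBSS. Txnl1 was 0.41 ± 0.05 and 0.27 ± 0.05 higher.

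The immunoproteasome subunits, known to be induced by interferon, were all 3 called higher in Vps15KO in basal medium. Psmb8 had 155.3, 241.3 and 195.9 normalized counts in WT basal against 931.6, 1079 and 1037 in Vps15KO basal libraries, a ratio of 5.14 (2.23 ± 0.12; limma adjusted p = 4.65e-11). In EBSS it had 197.3, 162.8 and 143.7 against 714.9, 717.0 and 612.4 (1.87 ± 0.12). Psmb9 had 21.7 ± 3.02 counts (SD, n = 3) in WT basal libraries against 140.6 ± 14.8 in those of Vps15KO basal medium, a log2 difference of 1.88 ± 0.16 (SE). The deposited scale understates log2 differences of genes with few reads. The 1.88 of Psmb9 is therefore not to be ranked against the 2.23 of Psmb8. Psmb10 was 0.39 ± 0.11 higher in basal medium, and 0.14 ± 0.11 in EBSS was not called. Per kb, Psmb8 stood at 624 ± 46.7 in Vps15KO basal medium, while Psmb5, the subunit it replaces in the core, stood at 3406 ± 170. Of the 3, 0 were called after EBSS in WT by limma or voom, with 0 at an unadjusted p under 0.05, and 2 were called lower in Vps15KO, Psmb8 by -0.56 ± 0.12 and Psmb10 by -0.34 ± 0.11. The call of Psmb10 ended without Vps15KO basal replicate 2 (adjusted p = 0.0732).

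Of 10 factors of the NRF1 and NRF2 pathway tested, 7 were called higher and 1 lower after EBSS in WT, 6 and 1 in Vps15KO, 6 and 3 for Vps15KO in basal medium, and 5 and 3 in EBSS. Of all genes, 62.7% were called either way after EBSS in WT, 52.0% in Vps15KO, 58.5% for Vps15KO in basal medium and 57.2% in EBSS. When WT basal replicate 2 was left out, there were 6 and 1 after EBSS in WT and 6 and 3 for Vps15KO in basal medium. Nfe2l1, which encodes NRF1, had 11355, 12390 and 11126 normalized counts in WT basal, 7462, 8294 and 8462 in WT EBSS, 14616, 15182 and 15415 in Vps15KO basal and 12258, 12531 and 13642 in Vps15KO EBSS libraries. It fell after EBSS by 0.53 on the log2 scale in WT and by 0.24 in Vps15KO, and it was 0.38 ± 0.07 and 0.66 ± 0.07 higher in Vps15KO. Ddi2, the protease that activates NRF1, rose by 1.16 ± 0.10 in WT after EBSS, and Ngly1, the enzyme that strips its glycans, was lower in Vps15KO in both media (-0.89 ± 0.08 and -0.93 ± 0.08). Nfe2l2, which encodes NRF2, had 2900, 2474 and 2889 counts in WT basal and 6180, 6064 and 6241 in WT EBSS libraries, a rise of 1.16 ± 0.06 (limma adjusted p = 4e-11). Their partners Maff, Mafg and Mafk were called higher in all 4 comparisons, in Vps15KO EBSS by 1.48 ± 0.07, 0.93 ± 0.06 and 1.47 ± 0.07 over WT EBSS.

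Of 12 genes for the unfoldase p97 and for shuttle factors, 7 were called higher and 2 lower after EBSS in WT, 5 and 1 in Vps15KO, 8 and 1 for Vps15KO in basal medium, and 7 and 2 in EBSS, against the same shares of all genes. Leaving out WT basal replicate 2 gave 7 and 3 after EBSS in WT and 8 and 0 for Vps15KO in basal medium. Zfand2a, a heat- and arsenite-induced regulator of the cap, had 723.5, 733.6 and 706.8 normalized counts in WT basal, 2003, 1963 and 2284 in WT EBSS, 2256, 2119 and 2041 in Vps15KO basal and 6537, 6258 and 6027 in Vps15KO EBSS libraries. It rose by 1.49 ± 0.06 and 1.54 ± 0.06 after EBSS and was 1.53 ± 0.06 and 1.58 ± 0.06 higher in Vps15KO (limma adjusted p from 1.15e-12 to 2.4e-12). Zfand5, another proteasome activator, rose by 1.04 ± 0.06 and 0.83 ± 0.06 after EBSS. Rad23b, a ubiquitin shuttle, was 0.67 ± 0.06 and 0.63 ± 0.06 higher in Vps15KO.

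Among genes for ubiquitin and the enzymes that activate it, Ubb, a polyubiquitin gene, rose after EBSS by 0.63 ± 0.06 in WT and 0.57 ± 0.06 in Vps15KO (limma adjusted p = 1.36e-07 and 8.75e-07). Rps27a, which joins ubiquitin to a ribosomal protein, fell by 0.37 and 0.38 on the log2 scale, and its reads may be split with copies elsewhere. Uba6, an activating enzyme, was 0.65 ± 0.15 higher in Vps15KO in basal medium (adjusted p = 0.0014).

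**Figure D5:**
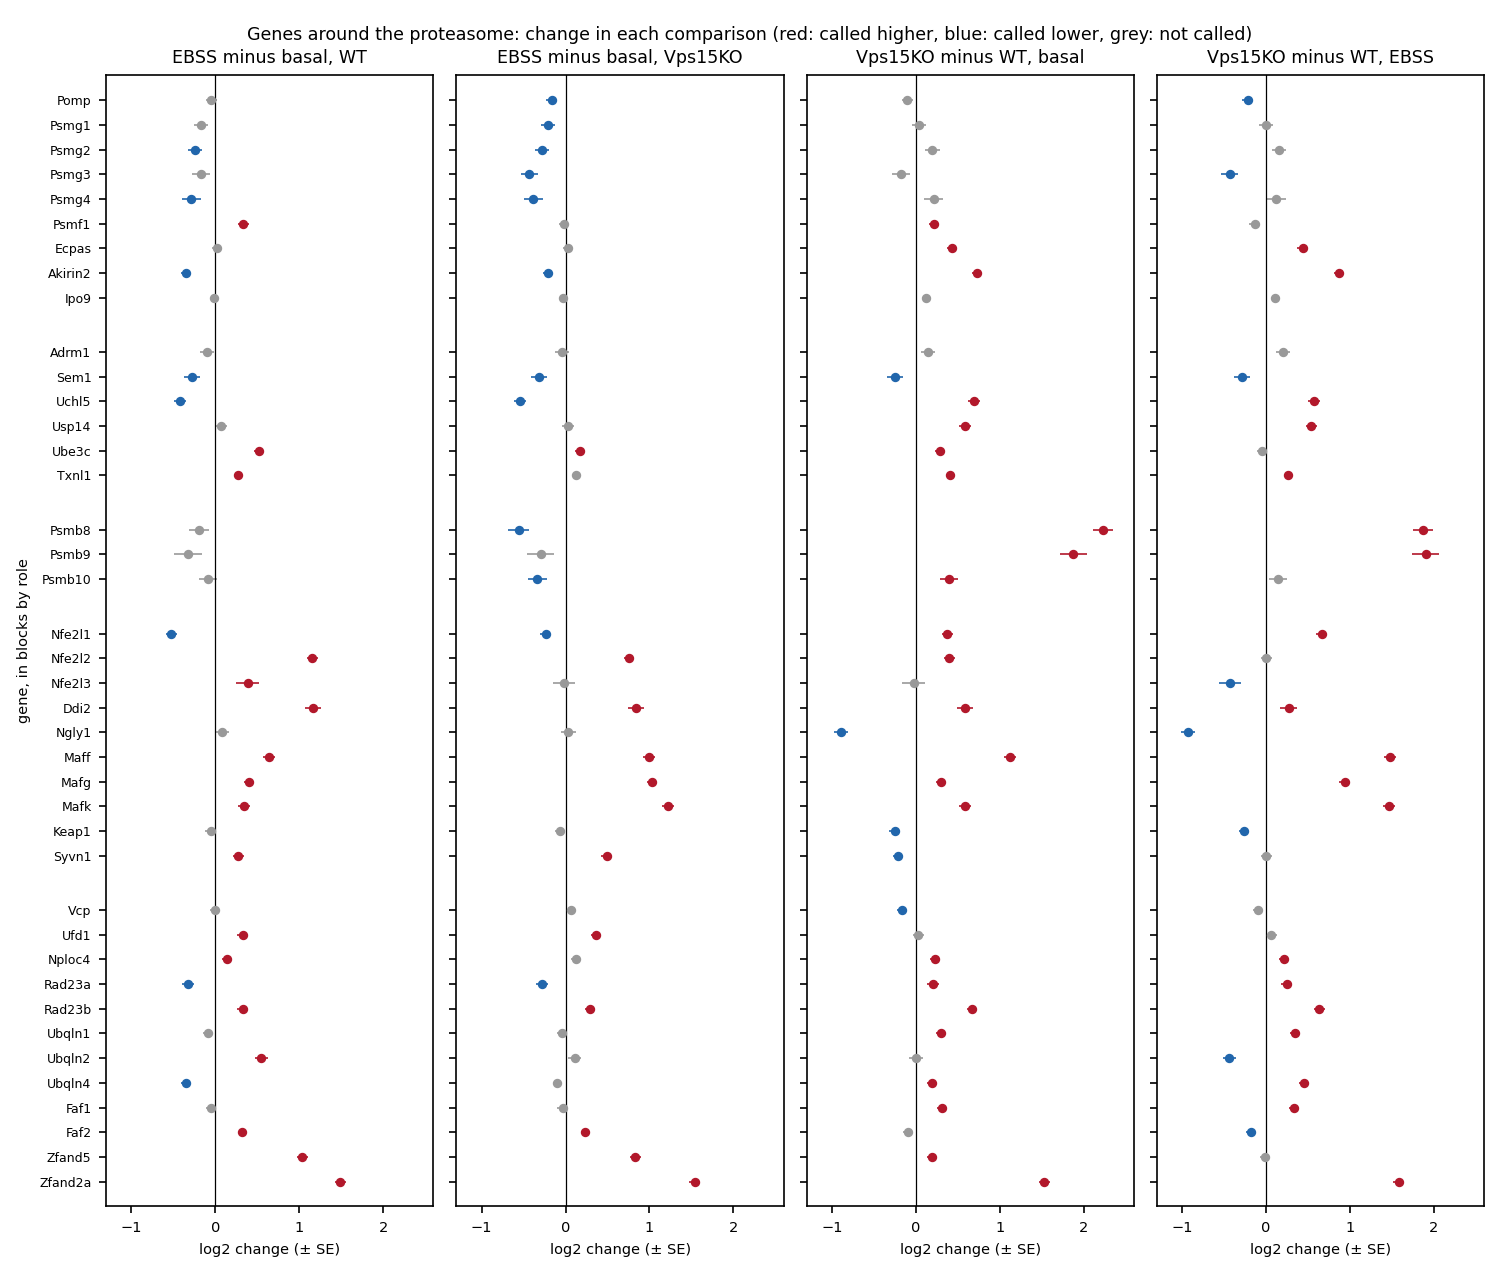
Log2 change of 40 tested genes of 5 surrounding lists (assembly factors and inhibitors, cap partners, immunoproteasome, NRF1 and NRF2 factors, p97 and shuttle factors) in the 4 comparisons, with bars of 1 SE, colored as called higher (red), lower (blue) or not called (grey). Psmb8 and Psmb9 lie near 2 in the Vps15KO panels, and Zfand2a lies near 1.5 in all 4.

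Of the 41 genes, 31 were called in at least 1 of the 4 comparisons. The other 10 were the core subunits Psma2, Psma6, Psmb2 and Psmb7, the cap subunits Psmc1, Psmc4, Psmc5 and Psmd7, the chaperone Psmd9 and Psme2b. The share of all genes called in at least 1 comparison was not computed. In each single comparison 52.0% to 62.7% of all genes were called, so the 31 is not read as particular to these genes. Psma2 varied little, with 2454 to 2818 normalized counts over all 12 libraries, and its 95% interval for the Vps15KO difference in basal medium was -0.13 to 0.09. For Psme2b, at 20.4 to 40.2 counts, the interval was -0.03 to 0.54, so depth limits what can be seen there. The pseudogene Psma5-ps, which the rule leaves out, had 3.91 to 11.0 counts a library, against 1943 to 3252 for Psma5.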

How the data were processed

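Poly-A RNA was sequenced in 12 libraries, 3 in each of 4 groups. Per the submitters' processing notes, STAR 2.7.10b, featureCounts, DESeq2, limma and build mm10 were used, with no role given, and strand use in counting is not given in the sources used here. The authors deposited 1 table of 32721 genes in log2 units, their variance-stabilizing transformation of counts divided by size factors (0.945 to 1.02), whose lowest value, 3.83, is a count of 0. From it reads were worked back. In every library 100% of values were whole within 0.001. The limit of 3 reads for a count of 0 covers counting error only, while 95% intervals of log2 changes come from limma's spread between libraries.

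The filter kept 14279 genes, those whose mean exceeds the lowest value by 1 or more. They were tested with limma 3.58.1 in R 4.3.3 on the deposited log2 values: a mean per group, empirical Bayes with a variance trend, 8 residual degrees of freedom and 10.2 prior. There were 5 comparisons, tests were two-sided, and the Benjamini-Hochberg adjustment ran over all genes in each. Log2 changes of genes with few reads are understated. The fit was tested on simulated data. Transcript length and GC content are medians over GENCODE M21 transcripts with a RefSeq match, and promoters are from RefSeq.

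Members and lists were chosen with earlier results of these data known. Values in every library were to be given for the 4 members with the smallest adjusted p among those called in each comparison, the catalytic subunits, the activators, the highest and lowest per length, and up to 4 genes of each surrounding list. Psma5, Psmc3, Psmd6, Psmc5, Nfe2l1, Ddi2, Ngly1 and the other genes named were chosen after their values were seen. Alternatives were the replicate block, filters, scalings, models, thresholds, removal of length and GC trends (a spline with 5 degrees of freedom, 13705 genes) and each library left out. Where 1 was left out, its group was assumed to vary like the others. Some results of the ubiquitin gene list are not reported here.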

Additional observations from a re-analysis of the deposited data

Results flagged for a closer look

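By limma with all libraries and the deposited scaling, 0 of the 41 proteasome genes were called for a difference between genotypes in the response to EBSS (3 at an unadjusted p under 0.05, 0 called by voom), and up to 5 were called lower when 1 library was left out. Of the surrounding genes named, 8 were called by limma's interaction term (Vps15KO minus WT, Benjamini-Hochberg adjusted). The genes named were picked for small p-values or after their values were seen. Their 8 calls are thus no share to set beside that of all genes. The response was lower in Vps15KO for the core inhibitor Psmf1, by -0.35 ± 0.09 (SE; adjusted p = 0.012), for the ubiquitin ligase Ube3c, by -0.34 ± 0.08 (adjusted p = 0.00746), and for Nfe2l2, by -0.40 ± 0.09 (adjusted p = 0.00469). Psmf1 changed by 0.33 in WT and -0.02 in Vps15KO, Ube3c by 0.52 and 0.18, and Nfe2l2 by 1.16 and 0.76. The response was higher for Maff (0.35 ± 0.10; adjusted p = 0.0184), Mafg (0.63 ± 0.09; adjusted p = 5.98e-05) and Mafk (0.88 ± 0.10; adjusted p = 1.18e-05), the small partners of NRF1 and NRF2. Mafk changed by 0.34 in WT and by 1.23 in Vps15KO. It was also higher for Nfe2l1 (0.29 ± 0.09; adjusted p = 0.04) and the shuttle factor Ubqln4 (0.26 ± 0.08; adjusted p = 0.0393), whose calls ended in 7 and 9 of the 12 fits that left out 1 library, with adjusted p up to 0.116 and 0.105. For Nfe2l1 these were all but the fits without any WT basal library, WT EBSS replicate 3 or Vps15KO EBSS replicate 1, and for Ubqln4 all but those without WT basal replicate 1 or 2 or Vps15KO EBSS replicate 1. The call of Maff ended without WT EBSS replicate 2 or Vps15KO EBSS replicate 1 (adjusted p = 0.0573 to 0.0597). Of all genes tested, 17.8% were called in this comparison.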

How the results depend on the processing

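Of the counts of proteasome genes under alternatives, 199 stayed within 1.5 times and 29 did not. Leaving out 1 library in turn gave 3 to 4 higher and 10 to 16 lower after EBSS in WT, 3 to 4 and 11 to 19 after EBSS in Vps15KO, 10 to 21 and 4 to 7 for Vps15KO in basal medium, 8 to 11 and 5 to 11 for Vps15KO in EBSS, and 0 to 1 and 0 to 5 for the difference. Quantile normalization gave 26 lower after EBSS in WT, 1 higher and 29 lower after EBSS in Vps15KO, 7 lower (12 higher) for Vps15KO in basal medium, 9 lower (8 higher) in EBSS and 2 lower for the difference. Equal medians gave 8 lower (12 higher), 11 lower (8 higher) and 1 lower in the last 3. No scaling moved the median of all genes by more than -0.05. Removal of length and GC trends gave 5 higher after EBSS in WT, 1 higher in Vps15KO, 8 and 9 lower for Vps15KO in basal medium and EBSS and 1 lower for the difference. Only the groups compared gave 9 lower after EBSS in WT and 11 lower for Vps15KO in EBSS. An adjusted p under 0.01 gave 9 lower after EBSS in WT, and 1227 in place of 2540 genes over the whole table for the difference. A mean at least 3 above the lowest value gave 1 lower for the difference. Without WT basal replicate 2 and WT EBSS replicate 1 together there were 9 lower after EBSS in WT, 22 higher for Vps15KO in basal medium, 9 lower in EBSS, and 1 higher and 4 lower for the difference. The cause was not tested. Among the genes named, a sign changed with a call on either side only with length and GC trends removed, while values not called changed sign in other fits too: after EBSS in WT for Psmc3 (0.14), Psmd3 (0.018), Psmd4 (0.030), Psme4 (-0.23), Ecpas (-0.33), Usp14 (-0.17) and Txnl1 (-0.046), and in Vps15KO for Psme4 (-0.078), Ecpas (-0.27) and Ube3c (-0.039).

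With the replicate block, counts were 3 higher and 14 lower after EBSS in WT, 3 and 15 in Vps15KO, 12 and 4 for Vps15KO in basal medium, 9 and 6 in EBSS and 0 and 0 for the difference. Residuals of same-numbered libraries correlated at -0.155 to -0.0418 between WT media and -0.0734 to 0.0125 between Vps15KO media. Between genotypes they correlated at 0.0825 to 0.26 in basal medium and 0.039 to 0.124 in EBSS. Libraries of different number correlated at -0.212 to 0.106 in basal medium and at -0.111 to -0.012 in EBSS. Whether same-numbered WT and Vps15KO libraries share a culture or day is therefore not settled. The block, shared by all groups, does not model a pairing within a medium. In basal medium WT replicate 1 correlated better with Vps15KO replicate 3 (0.106) than with its own number (0.0905). Psmc4 after EBSS in Vps15KO and Psma7 for Vps15KO in EBSS gained a call under the block and Psma1 for Vps15KO in basal medium lost it. Voom with TMM scaling was planned and not run, since the deposited unit is log2. Voom with the deposited scaling, run on the recovered reads and chosen after seeing the data, took its place. With 3 libraries a group, small changes near the threshold, such as those of Psma1 and Psmc3ip, are not settled.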
